A study of Mus musculus with 16 samples.

Results

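The Hippo pathway kinases and effectors were described here across mouse thymic T-cell tumors and normal thymic T cells, from the genes Stk4, Stk3, Sav1, Mob1a, Mob1b, Lats1, Lats2, Yap1, Wwtr1 and Tead1. Members were found by gene symbol, as array features annotated with exactly 1 of these symbols, and the brightest such feature stood for a gene. Of the 10 genes, 9 had a feature of their own, among 22180 genes that did. No feature was named Stk3 alone or with other genes, so its RNA was not measured here. Testing required a level above the array median on at least 3 arrays. Of the members, 7 were tested, among 12932 genes, while Wwtr1 lay above the median on 0 of the 16 arrays and Tead1 on 2.

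RNA of 16 samples was hybridized to 1 Affymetrix Mouse Gene 2.0 ST array each, to set tumors driven by Dlx5, by Akt2 or by both beside normal cells. The tumors were 3 Lck-Dlx5 lymphomas (9 months old, 1 each from Dlx5 founder lines 63, 47 and 86), 3 Lck-MyrAkt2 tumors of founder line 72 and 3 of founder line 420 (5 months old), and 4 tumors of mice carrying both transgenes (2 months old), called double transgenic here. They were set against thymic T cells of 3 wild-type (WT) littermates of the Lck-Dlx5 mice, 9 months old. The Lck promoter, a promoter used in thymocytes, drove both transgenes, and MyrAkt2 is Akt2 kept at the membrane by a myristoylation signal. The double transgenic tumors 1 and 2 carried Dlx5 of founder line 47 and Akt2 of line 420, and tumors 3 and 4 carried Dlx5 of founder line 86, with no Akt2 line given. Lck-Dlx5 lymphomas and WT cells were of the same age, as were line 72 and line 420. In the other comparisons age went with genotype, so age and transgene cannot be told apart there. The labels name 3 littermates for WT and give every tumor a founder line or number of its own, so p-values measure the spread between these samples.

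In the Hippo pathway, the kinases Mst1 (encoded by Stk4) and Mst2 (encoded by Stk3) bind the scaffold Sav1 and activate the kinases Lats1 and Lats2 together with their coactivators Mob1a and Mob1b. Lats kinases phosphorylate the transcriptional coactivators YAP (Yap1) and TAZ (Wwtr1), which are then held in the cytoplasm and degraded; when the kinases are inactive, YAP and TAZ enter the nucleus, bind TEAD factors such as Tead1 and switch on growth genes. In T cells Mst1 is best known for work in part outside this cascade: mice and people without it have few naive T cells, with defects of survival, adhesion and exit from the thymus.

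Values are the deposited log2 signals, in which a step of 1 is a doubling. Array medians lay between 6.32 and 6.46. Different genes have different probes, so levels were compared within a gene only. As a check of the transgene, Dlx5 read 11.45 to 12.30 in the Lck-Dlx5 lymphomas, 6.05 to 6.07 in line 72, 9.87 to 10.69 in line 420, 11.93 to 12.97 in the double transgenic tumors and 5.70 to 5.82 in WT cells. It was thus high in line 420 too, where no Dlx5 transgene was labelled. All 8 T cell markers with a feature lay above the array median on every array. Their mean log2 level was 11.12 to 11.51 in Lck-Dlx5 lymphomas, 9.75 to 10.10 in line 72, 10.24 to 11.29 in line 420, 11.36 to 11.58 in double transgenic tumors and 11.71 to 11.83 in WT cells.

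**Figure D1:**
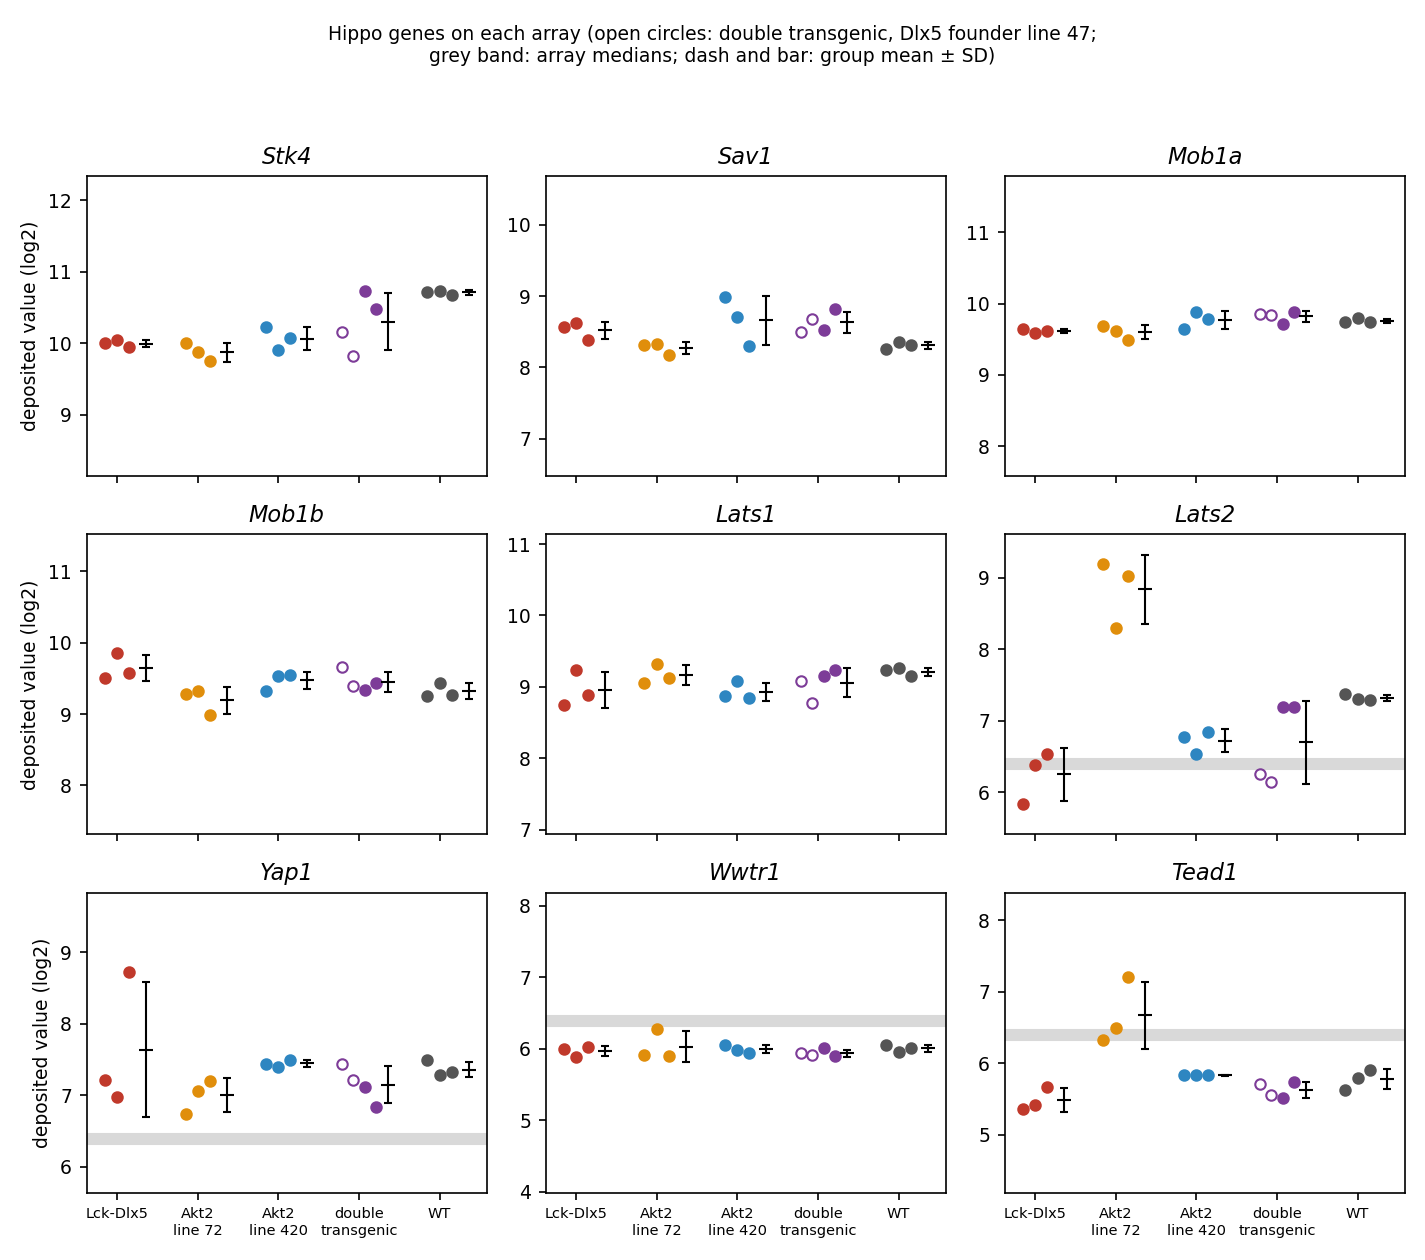
Deposited log2 value (vertical axes, each spanning the same range of log2 units) of the 9 measured Hippo genes on each of the 16 arrays, by group (horizontal axis), with the group mean and SD as a dash and bar and the range of array medians as a grey band. Lats2 stood at 8.30 to 9.19 in line 72 and at 7.37 or below on all other arrays, and Stk4 was highest in WT cells and in 1 double transgenic tumor of founder line 86.

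The members called were set beside the calls over all genes. Against WT, 2 of 7 tested members were called in Lck-Dlx5 lymphomas (0 higher, 2 lower), where 29.6% of all genes tested were called. In line 72 it was 2 of 7 (1 higher, 1 lower) against a background of 36.3%, in line 420 1 of 7 (lower) against 30.5%, and in double transgenic tumors 0 of 7 by limma (3 at an unadjusted p under 0.05) against 23.8%. By direction, 13.7%, 20.7%, 15.1% and 14.9% of all genes were called higher and 15.9%, 15.6%, 15.4% and 8.93% lower in these 4 comparisons. The median log2 difference of the 7 was -0.14, -0.12, 0.01 and -0.15 in those 4 comparisons, beside 0.00, 0.04, 0.03 and 0.05 over all genes tested.

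Between tumor groups, 2 of 7 were called in Lck-Dlx5 against line 72 (Mob1b higher, Lats2 lower), with 19.7% of all genes called. In line 420 against line 72 and in double transgenic against line 72, only Lats2 was called, with 11.2% and 17.7% of all genes called. None of the 7 was called in Lck-Dlx5 against line 420, double transgenic against Lck-Dlx5 or double transgenic against line 420, where 0.827%, 1.86% and 0.178% of all genes were. At an unadjusted p under 0.05 limma gave 0, 1 and 0 of the 7 in these comparisons. Single arrays moved these 3 shares by over 1.5 times: with each array left out in turn they ran from 0.263% to 1.19%, 0.108% to 6.09% and 0.0464% to 5.14%. A share near the background says nothing particular about the pathway.

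The upstream kinase gene Stk4 was lower in each group of tumors with a single transgene than in WT cells. Stk4 read 10, 10.04 and 9.94 in the Lck-Dlx5 lymphomas, 10, 9.87 and 9.75 in line 72 and 10.22, 9.90 and 10.07 in line 420, against 10.71, 10.73 and 10.68 in WT cells. None of these 9 tumors overlapped the WT range, as was so for 52.8%, 58.2% and 53.8% of all genes in the 3 comparisons. The log2 difference from WT was -0.71 ± 0.18 (SE, limma adjusted p = 0.0096) in Lck-Dlx5 lymphomas, -0.83 ± 0.18 (adjusted p = 0.00249) in line 72 and -0.64 ± 0.18 (adjusted p = 0.0145) in line 420, or 1.64-fold, 1.78-fold and 1.56-fold lower. The line 420 call was lost without its replicate 2 (adjusted p = 0.0542). T cell markers were also below WT, with 3 of 8 called lower in Lck-Dlx5 lymphomas, 6 in line 72, 6 in line 420 and 1 in double transgenic tumors, where 15.9%, 15.6%, 15.4% and 8.93% of all genes were called lower. In line 72 the largest drops were in Cd8a (mean 7.54, against 12.7 in WT) and Cd8b1 (8.66, against 12.91). Cd3e (11.7, against 12.36) and Thy1 (11.38, against 11.91) fell less, so the markers did not fall evenly. In bulk RNA, fewer cells of a type and less RNA per cell cannot be told apart.

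Among the double transgenic tumors, Stk4 split by Dlx5 founder line. It read 10.73 and 10.48 in the founder line 86 tumors, against 10.15 and 9.82 in the founder line 47 tumors. Of these 4 tumors, 1 of founder line 86 reached the WT range. As a group they averaged 10.30 ± 0.40 (SD, n = 4), against 10.71 ± 0.03 in WT (n = 3), a log2 difference of -0.41 ± 0.17 (SE) that missed the threshold (limma adjusted p = 0.0884).

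The sequence around the Stk4 start site is shown because Stk4 was the core kinase gene called lower in 3 groups. It is the RefSeq promoter window of 250 bases before and 50 after the start, on the plus strand at chr2:164073888-164074187 of GRCm38.p6, with none of the searched letters in it:
Stk4: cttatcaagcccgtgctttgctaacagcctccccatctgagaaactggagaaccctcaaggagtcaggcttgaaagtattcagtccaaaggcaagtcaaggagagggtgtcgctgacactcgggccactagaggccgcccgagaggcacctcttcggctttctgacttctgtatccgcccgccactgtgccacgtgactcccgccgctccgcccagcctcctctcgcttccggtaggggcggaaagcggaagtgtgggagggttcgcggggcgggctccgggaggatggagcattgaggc

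The scaffold and coactivator genes varied little. Sav1 ran between 8.18 and 8.98 over the 16 arrays, with means of 8.52 ± 0.12 in Lck-Dlx5 lymphomas, 8.27 ± 0.08 in line 72, 8.66 ± 0.34 in line 420, 8.63 ± 0.15 in double transgenic tumors and 8.31 ± 0.05 in WT cells (SD). No Sav1 difference was called in any of the 10 pairs of groups; the nearest to the threshold was line 420 against WT, at 0.35 ± 0.15 (SE, limma adjusted p = 0.0863, 95% interval 0.04 to 0.66). In line 420, replicate 3 (8.30) lay in the WT range of 8.26 to 8.36, and without it the difference was 0.53 (adjusted p = 0.0115). Mob1a, which activates Lats kinases once Mst has phosphorylated it, stayed between 9.49 and 9.88 on all arrays, and none of its differences was called.

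Mob1b, the close relative of Mob1a, was called in 1 pair. It read 9.51, 9.85 and 9.57 in the Lck-Dlx5 lymphomas, against 9.28, 9.32 and 8.98 in line 72, with no overlap, as for 36.5% of all genes in this pair. The log2 difference was 0.45 ± 0.13 (SE, limma adjusted p = 0.0262), 1.37-fold higher in the lymphomas. The call was lost without Lck-Dlx5 replicate 2 (adjusted p = 0.103), without line 72 replicate 3 (adjusted p = 0.111) and with only the arrays compared (adjusted p = 0.0986). Mob1b in WT cells was 9.25 to 9.44, a range that held 2 of the 3 line 72 values, and the Lck-Dlx5 lymphomas were 0.33 ± 0.13 above it (adjusted p = 0.0711).

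Lats1 was not called in any pair of groups. It ran from 8.75 to 9.32 over the 16 arrays. The largest difference, line 420 against WT, was -0.28 ± 0.14 (SE, limma adjusted p = 0.153), with a 95% interval of -0.59 to 0.02.

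Lats2 had the widest range of the 9 genes and was the one member called in opposite directions from WT. It read 5.83, 6.38 and 6.54 in the Lck-Dlx5 lymphomas, 9.19, 8.30 and 9.03 in line 72 and 6.78, 6.54 and 6.85 in line 420, against 7.37, 7.30 and 7.29 in WT cells. Line 72 stood above every other array, and the Lck-Dlx5 and line 420 tumors all stood below WT. Of all genes tested, 58.2% did not overlap between line 72 and WT, and 52.8% between Lck-Dlx5 lymphomas and WT. Lats2 was above the array median on 12 of 16 arrays, and the 2 lowest Lck-Dlx5 values lay below or within the range of array medians.

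In line 72 Lats2 was 1.52 ± 0.30 above WT on the log2 scale (SE, limma adjusted p = 0.00146, 2.87-fold). In Lck-Dlx5 lymphomas it was -1.07 ± 0.30 from WT (adjusted p = 0.017), a call lost without Lck-Dlx5 replicate 1 (adjusted p = 0.0677) or WT replicate 1 (adjusted p = 0.0533). In line 420 the difference of -0.60 ± 0.30 was not called (adjusted p = 0.147). No tumor overlapped WT there, as was so for 53.8% of all genes. With the spread taken from the arrays compared alone it was called (adjusted p = 0.00521).

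**Figure D2:**
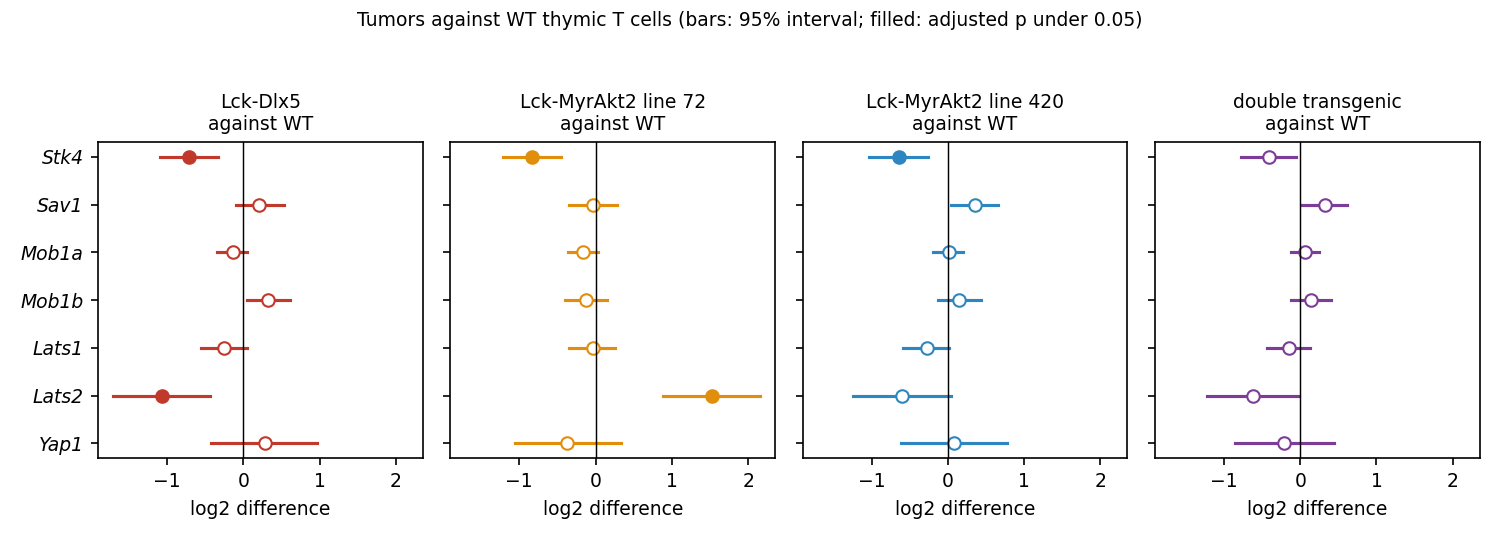
Log2 difference from WT thymic T cells (horizontal axis) of the 7 tested Hippo genes (vertical axis) in each tumor group, with 95% intervals; filled points have a limma adjusted p under 0.05. Stk4 lay to the left of 0 in all 4 groups and was called in 3, while Lats2 was at 1.52 in line 72 and at -1.07 in Lck-Dlx5 lymphomas.

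Line 72 also stood apart from each other tumor group in Lats2. The Lck-Dlx5 lymphomas were -2.59 ± 0.30 from line 72 (SE, limma adjusted p = 7.05e-05). The study named Lats2 from these arrays, so this difference is not independent evidence. Line 420 was -2.12 ± 0.30 from line 72 (limma adjusted p = 0.000445, 4.34-fold lower). Both lines carry the MyrAkt2 transgene, but Dlx5 read 9.87 to 10.69 in line 420 and 6.05 to 6.07 in line 72. Cd8a also differed, with means of 10.88 and 7.54. The part of these differences in that of Lats2 was not tested. Double transgenic tumors were -2.14 ± 0.28 from line 72 (adjusted p = 0.000187). No fold is given where values did not exceed the array median, as for 2 of the 3 Lck-Dlx5 lymphomas and 2 of the 4 double transgenic tumors. These calls held under all alternatives tried.

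Between Lck-Dlx5 and line 420 tumors, the Lats2 difference was -0.47 ± 0.30 (adjusted p = 0.493), with a 95% interval of -1.11 to 0.17. Double transgenic tumors were 0.45 ± 0.28 from the Lck-Dlx5 lymphomas and -0.02 ± 0.28 from line 420, and neither was called.

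The Lats2 start site is shown because, of the 7 tested members, this kinase gene had the largest difference. The window of the upstream of its 2 RefSeq start sites lies on the minus strand at chr14:57746074-57746373 of GRCm38.p6. Capitals mark a match to the TEAD motif GGAATG, found just past the start of transcription:
Lats2: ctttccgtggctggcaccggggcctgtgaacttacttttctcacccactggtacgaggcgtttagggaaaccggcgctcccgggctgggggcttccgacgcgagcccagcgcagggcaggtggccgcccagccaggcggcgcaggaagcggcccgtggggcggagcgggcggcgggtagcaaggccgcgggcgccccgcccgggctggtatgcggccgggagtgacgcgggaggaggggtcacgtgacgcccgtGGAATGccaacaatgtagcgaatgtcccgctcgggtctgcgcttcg

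RefSeq windows were at hand for 8 of the 10 genes, 10 windows in all, with 2 each for Lats2 and Wwtr1. The TEAD letters GGAATG, or CATTCC on the other strand, were in 6 of these 10 windows (Sav1, Lats2, Mob1a, Yap1 and both overlapping windows of Wwtr1), against 14.7% of all 32851 windows of 300 bases. The homeobox core TAATT, or AATTA on the other strand, to which Dlx proteins are known to bind, was in the 2 Wwtr1 windows, against 27.0% of all windows. No match of one motif overlapped the other in these windows. A match describes letters and not a bound site.

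Lats2 also differed between founder lines of the double transgenic tumors. The founder line 86 tumors read 7.19 and 7.20, against 6.25 and 6.15 in the founder line 47 tumors. The group as a whole was -0.62 ± 0.28 from WT (SE, limma adjusted p = 0.123). With the founder lines fitted as separate groups, chosen after the values were seen, the lines differed by 1.00 ± 0.26 in Lats2 (adjusted p = 0.0476) and by 0.62 ± 0.15 in Stk4 (adjusted p = 0.032), both higher in founder line 86. Of all genes, 4.28% were called between them. None of the other 5 tested members was called, the largest being Yap1 at -0.36 ± 0.40 (adjusted p = 0.65). Sample code type and the labelled Akt2 line also split these 4 tumors the same way, so founder line cannot be told apart from them.

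Taken alone, the founder line 47 tumors were lower than WT in Stk4 (-0.72, adjusted p = 0.00175) and Lats2 (-1.12, adjusted p = 0.00528). The founder line 86 tumors alone were higher than the Lck-Dlx5 lymphomas in Stk4 (0.61, adjusted p = 0.00698) and Lats2 (0.94, adjusted p = 0.0235). Of all genes, 29.5% and 14.9% were called in those 2 comparisons. These pairs of tumors were set apart after the Stk4 and Lats2 values were seen, so their limma adjusted p-values are descriptions and not independent tests. In the Lck-Dlx5 group, the single lymphomas of founder lines 86 and 47 read 6.54 and 6.38 in Lats2 and 9.94 and 10.04 in Stk4, 1 array each with no test.

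**Figure D3:**
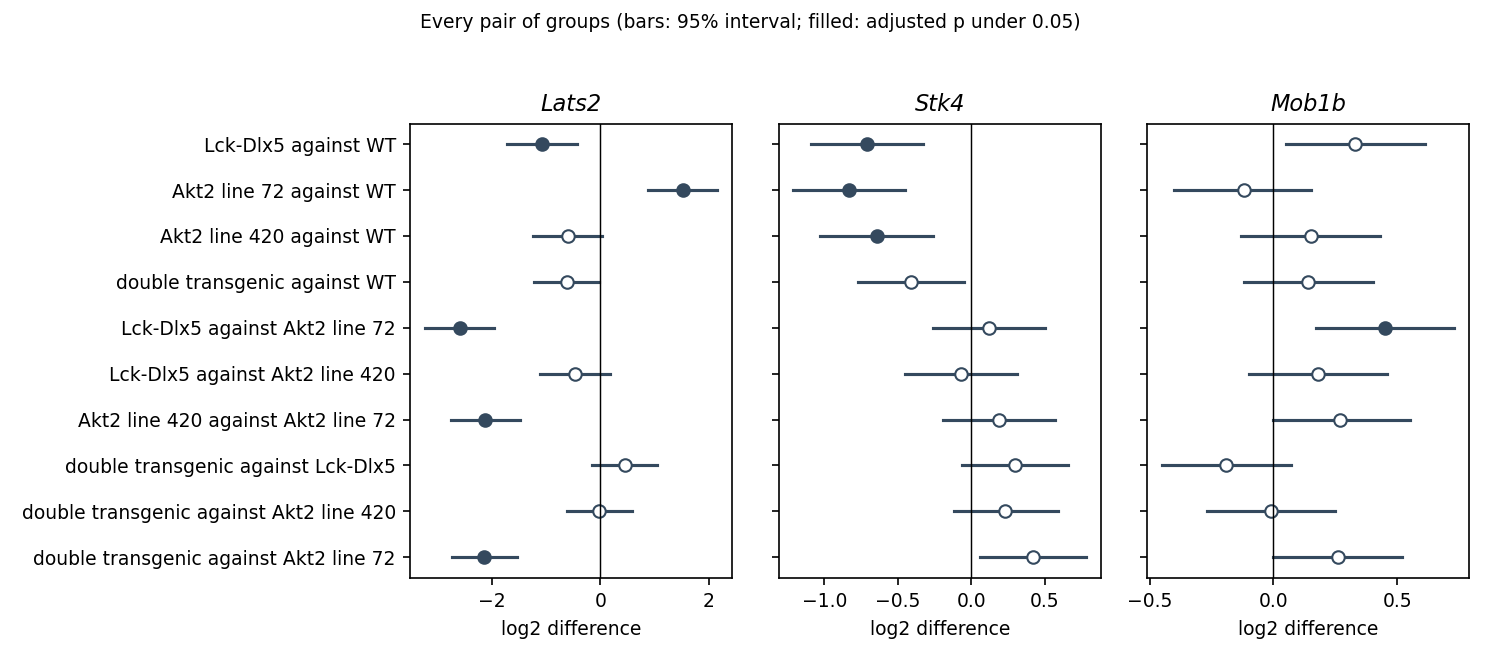
Log2 differences (horizontal axes, a scale for each gene) of Lats2, Stk4 and Mob1b in all 10 pairs of groups (vertical axis), with 95% intervals; filled points have a limma adjusted p under 0.05. The 4 pairs that include line 72 hold the largest Lats2 differences, from -2.59 to 1.52, and the Stk4 calls are all against WT.

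Yap1, the effector held back by Lats kinases, was above the median on all 16 arrays and was not called in any pair. It read 7.22, 6.97 and 8.73 in the Lck-Dlx5 lymphomas, against 7.49, 7.28 and 7.32 in WT cells. The third lymphoma, of founder line 86, was the highest of all 16 arrays, and the other 15 lay between 6.74 and 7.50. The dimmer Yap1 feature was also highest there, at 4.65, against 3.61 to 4.21 elsewhere. In the double transgenic tumors of founder line 86 Yap1 read 7.11 and 6.83, so those 2 tumors did not share the high value. Without it, the Lck-Dlx5 difference from WT, 0.28 ± 0.33 (SE, limma adjusted p = 0.557), turned to -0.27.

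Wwtr1, which encodes TAZ, was dim on every array, between 5.89 and 6.28. In a fit with no filter on dim features it was called in 0 of 10 pairs by limma (0 at an unadjusted p under 0.05). Tead1 was dim as well, above the array median on 2 arrays, both of line 72. It read 6.32, 6.49 and 7.21 in line 72, and 5.36 to 5.84 in the other tumors, against 5.63, 5.79 and 5.91 in WT cells. The 3 line 72 values stood above those of all 13 other arrays. Of the genes tested, which did not include Tead1, 58.2% did not overlap between line 72 and WT. In the fit with no filter, Tead1 in line 72 was 0.90 ± 0.18 above WT (SE, limma adjusted p = 0.00248), and it was lower than line 72 in Lck-Dlx5 lymphomas (-1.19, adjusted p = 0.000829), line 420 (-0.84, adjusted p = 0.0114) and double transgenic tumors (-1.05, adjusted p = 0.00122). Without the filter, 20.2%, 13.1%, 5.78% and 9.34% of all genes were called in those 4 comparisons. All 13 values outside line 72 lay below the array medians.

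Markers of other cells differed from WT in line 72 and in other tumors. Mean macrophage marker levels were 8.92 to 10.06 in line 72 and 8.77 to 9.34 in line 420, against 8 to 8.33 in WT, with 3 and 2 of 5 called higher. Mean fibroblast and endothelium levels were 7.47 to 8.51 in line 72 and 7.66 to 7.75 in line 420, against 7.20 to 7.38 in WT, with 4 and 2 of 9 called higher and 1 called lower in line 420. Over all genes, 20.7% and 15.1% were called higher in those groups. Of 6 thymic epithelium markers, 6 were called lower in Lck-Dlx5 lymphomas, 4 in line 72, 6 in line 420 and 4 in double transgenic tumors. Of all genes, 15.9%, 15.6%, 15.4% and 8.93% were called lower in these groups. Foxn1, Prss16 and Psmb11 passed the filter on dim features only with the WT arrays counted, which favors a lower call for them. Psmb11 read 6.53 to 6.69 in WT and 5.91 or below in all tumors, under the array medians. The counts for thymic epithelium are thus descriptions. Neutrophil markers set line 72 apart from the other tumors, at 6.78 to 8.67 in line 72 and 5.47 to 5.93 in the others, against 7.33 to 8.14 in WT.

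The tumor with the highest macrophage, fibroblast and endothelium, and neutrophil markers was not the one with the highest Lats2 or Tead1. Line 72 replicate 2 had macrophage markers at 10.06, fibroblast and endothelium markers at 8.51 and neutrophil markers at 8.67, and its Lats2, 8.30, was the lowest of the 3. Replicates 1 and 3 had macrophage markers at 8.92 and 8.98, within the line 420 range of 8.77 to 9.34, where Lats2 read 6.54 to 6.85. Their neutrophil markers, 6.78 and 6.82, stood above the line 420 range of 5.76 to 5.91. Their thymic epithelium markers, 6.48 and 6.59, also stood above that of line 420, 6.02 to 6.08. Without replicate 2 the Lats2 difference of line 72 from WT was 1.79. The part of other cells in the Lats2 and Tead1 differences was not tested beyond these values.

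**Figure D4:**
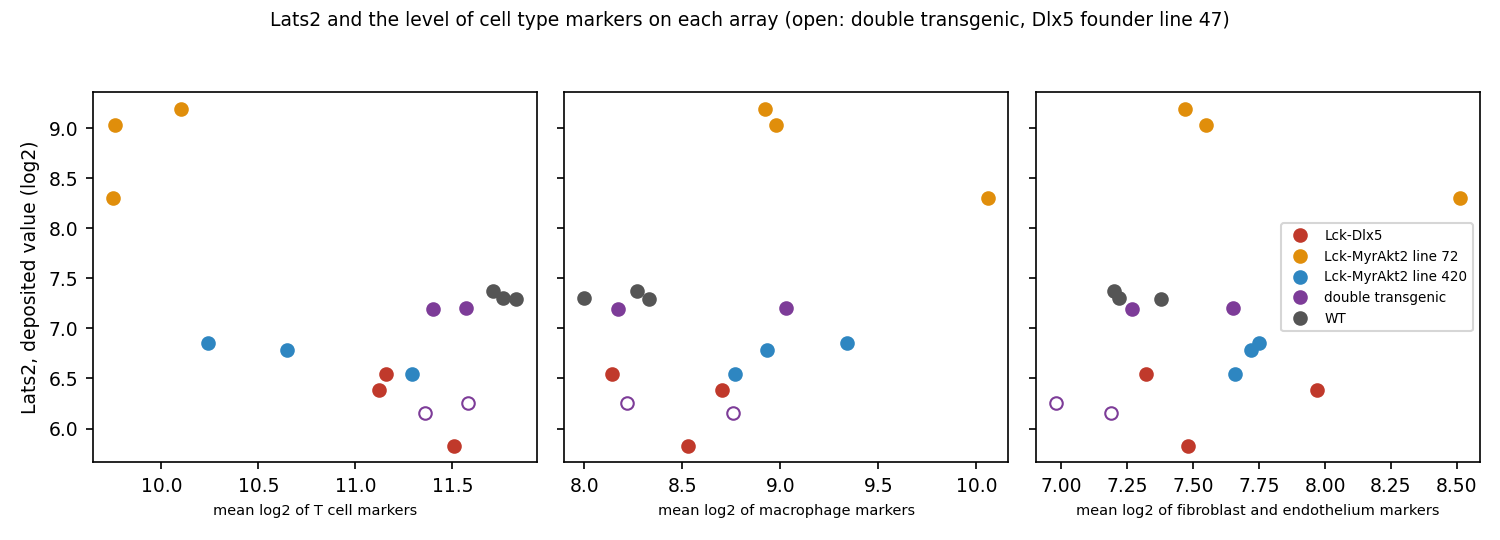
Lats2 (vertical axis, deposited log2 value) on each array against the mean log2 level of T cell, macrophage, and fibroblast and endothelium markers (horizontal axes), by group. The 3 line 72 arrays lie at the top, with the array of highest macrophage and fibroblast markers at 8.30, below the other 2.

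The genes whose pattern over the 16 arrays was most like Stk4 were Lonp2 (Pearson r = 0.974), Chm (0.964) and Esyt2 (0.953). For Lats2 they were Pitpnc1 (0.965), Tnfrsf1b (0.965) and Ephx1 (0.961), and for Mob1b they were Phtf1 (0.898), Sgo2a (0.896) and Eif4g2 (0.893). The arrays are shared, so these values are descriptions.

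Other kinases that can phosphorylate Lats, the MAP4K family, were lower than WT in several groups. Of 5 tested, 3 were lower in Lck-Dlx5 lymphomas, 1 in line 72, 4 in line 420 and 0 in double transgenic tumors (1 at an unadjusted p under 0.05), against 15.9%, 15.6%, 15.4% and 8.93% of all genes, and none was higher. The median log2 differences were -0.50, -0.30, -0.50 and -0.21. Map4k5 was lowest in line 72, at 6.57, 7.41 and 6.01, against 9.42, 9.54 and 9.28 in WT cells, a log2 difference of -2.75 ± 0.36 (SE, limma adjusted p = 8.18e-05). Tnik averaged 8.04 in Lck-Dlx5 lymphomas and 9.60 in WT, a difference of -1.57 ± 0.35 (adjusted p = 0.00533). In the double transgenic tumors Tnik read 9.72 and 9.19 with founder line 86, against 8.16 and 8.01 with founder line 47, the same order as for Stk4 and Lats2.

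Upstream regulators had few calls outside line 72. Of 9 tested (junction, polarity and TAO kinase genes among them), 1 was lower in Lck-Dlx5 lymphomas, 4 in line 72, 1 in line 420 and 0 in double transgenic tumors (1 at an unadjusted p under 0.05), and none was higher. The same 4 shares of all genes, 15.9%, 15.6%, 15.4% and 8.93%, were called lower. Csnk1e, a casein kinase gene, was the largest, at -1.27 ± 0.24 in line 420 (SE, limma adjusted p = 0.00187). Taok3, a kinase of the TAO family that can phosphorylate Mst, was -0.63 ± 0.14 in line 72 (adjusted p = 0.00272).

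Among the RASSF scaffolds, which bind Mst kinases, Rassf2 was lower than WT in 3 groups. The log2 difference was -1.03 ± 0.29 in Lck-Dlx5 lymphomas (SE, limma adjusted p = 0.0186), -1.13 ± 0.29 in line 420 (adjusted p = 0.0108) and -0.99 ± 0.28 in double transgenic tumors (adjusted p = 0.0189). Of the 4 RASSF genes tested, 1 was lower in Lck-Dlx5 lymphomas, 2 in line 420 and 1 in double transgenic tumors, and none was higher. Over all genes, 15.9%, 15.4% and 8.93% were lower there. In line 72 none of the 4 was called by limma, and 0 had an unadjusted p under 0.05, where 36.3% of all genes were called. Rassf2 averaged 9.35 in line 72 and 9.93 in WT, so it was below WT there too. In the double transgenic tumors Rassf2 read 9.64 and 9.46 with founder line 86, against 8.34 and 8.32 with founder line 47.

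The NDR kinases, relatives of Lats, and the other MOB proteins were lower in part. Of 7 tested, 4 were lower in Lck-Dlx5 lymphomas, 2 in line 72, 3 in line 420 and 2 in double transgenic tumors, and 1 was higher in each of line 420 and double transgenic tumors. Over all genes 15.9%, 15.6%, 15.4% and 8.93% were lower, and 15.1% and 14.9% were higher in line 420 and double transgenic tumors. Mob3a was the largest, at -1.41 ± 0.25 in line 420 (SE, limma adjusted p = 0.00113), and Mob3b was the higher gene, at 0.66 ± 0.16 there (adjusted p = 0.0077). Mob4 was lower in all 4 groups, with a difference of -0.51 ± 0.13 in Lck-Dlx5 lymphomas (adjusted p = 0.00933). Of the 11 tested genes of STRIPAK, the phosphatase complex that removes phosphate from Mst kinases, 2, 3, 3 and 1 were lower in those 4 groups, and none was higher. Sike1 was the largest, at -0.99 ± 0.22 in line 420 (adjusted p = 0.00381).

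Proteins that bind YAP and TAZ showed few calls. Of 12 tested, 2 were lower in Lck-Dlx5 lymphomas, 1 in line 72, 2 in line 420 and 1 in double transgenic tumors, near or below the 15.9%, 15.6%, 15.4% and 8.93% of all genes called lower, and none was higher. Smad7, an inhibitor of TGF-beta signaling that binds YAP, was the largest, at -1.54 ± 0.27 in double transgenic tumors (SE, limma adjusted p = 0.00163). Its values there, 5.38 to 6.00, lay below the array medians. Smad7 passed the filter on dim features only with the WT arrays counted. Against line 72, Ptpn14, a phosphatase that restrains YAP, was 2.27 ± 0.61 higher in Lck-Dlx5 lymphomas (adjusted p = 0.0188). It read 10.42, 10.58 and 11.10 in the Lck-Dlx5 lymphomas, against 9.59, 6.70 and 9.00 in line 72, where replicate 2 was far below the others.

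Genes known in other tissues as targets of YAP and TAZ were called in each tumor group. Of 7 tested, 3 were higher in line 72 than in WT and none lower. In Lck-Dlx5 lymphomas 2 were lower, and in line 420 and double transgenic tumors 1 each, with none higher in these groups. Of all genes, 20.7% were higher in line 72, and 15.9%, 15.4% and 8.93% were lower in the other 3 groups. The median of the 7 in line 72 was 0.07, close to 0.04 for all genes. Nt5e, which encodes the ectonucleotidase CD73 and is also a lymphocyte gene, read 9.58, 8.72 and 10.16 in line 72, against 6.94, 6.97 and 6.76 in WT cells, 2.60 ± 0.47 higher (SE, limma adjusted p = 0.000853). Fstl1, a secreted protein of mesenchymal cells, was 1.14 ± 0.17 higher (adjusted p = 0.000167). The fibroblast markers given above also moved this way.

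Crim1 and Axl were the 2 of these targets lower in Lck-Dlx5 lymphomas than in WT. Crim1, a membrane protein, differed by -1.02 ± 0.17 (SE, limma adjusted p = 0.000982), and Axl, a receptor tyrosine kinase, by -0.85 ± 0.23 (adjusted p = 0.0142). The Crim1 values of these lymphomas, 5.93 to 6.33, lay below the medians of their arrays. Ankrd1, a target often used as a readout of YAP, was too dim to be tested, and Ccn2 was not called in any comparison with WT.

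Genes linked to Mst1 in T cells, for survival, adhesion and movement, were lower than WT in part. Of 11 tested, 6 were lower in Lck-Dlx5 lymphomas, 5 in line 72, 6 in line 420 and 5 in double transgenic tumors, against 15.9%, 15.6%, 15.4% and 8.93% of all genes, and none was higher. The medians were -0.55, -0.57, -0.61 and -0.45, beside 0.00, 0.04, 0.03 and 0.05 for all genes. Ccr7, a chemokine receptor of T cells that leave the thymus, read 7.51, 7.17 and 8.06 in Lck-Dlx5 lymphomas, against 10.36, 10.35 and 10.52 in WT cells, a log2 difference of -2.83 ± 0.34 (SE, limma adjusted p = 0.000134). Il7r, the receptor chain for the survival cytokine IL-7, differed by -3.26 ± 0.50 there (adjusted p = 0.000609). In line 420 Il7r was not called, at 10.41, 10.03 and 11.05, against 10.50, 10.50 and 10.46 in WT cells. The paper describes Lck-Dlx5 lymphoma cells as immature, with both CD4 and CD8. The part of cell stage or of Stk4 in the differences of this list was not tested.

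**Figure D5:**
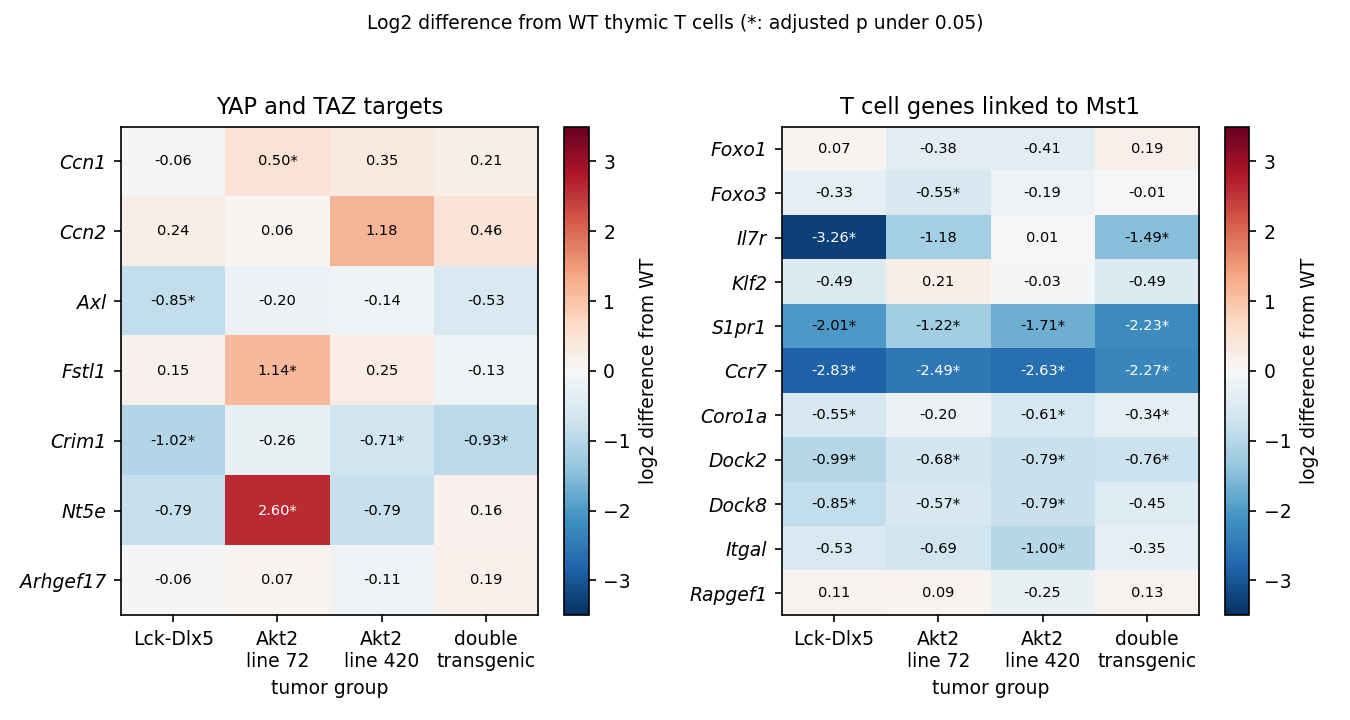
Log2 difference from WT (color and number) of the tested YAP and TAZ targets and of T cell genes linked to Mst1 (rows), in the 4 tumor groups (columns); a star marks a limma adjusted p under 0.05. Nt5e in line 72 was the largest positive value, at 2.60, and Ccr7, S1pr1 and Dock2 carried a star in all 4 groups.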

How the data were processed

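The authors deposited log2 expression values for Affymetrix Mouse Gene 2.0 ST arrays. Their submission notes name Affymetrix Expression Console, and their methods also name another program for the array files, but the summarization and the normalization between arrays are not given in the sources used here. Arrays report no read depth, and the number of arrays limits the precision. Of 41345 features, 23521 were annotated with 1 gene, 1820 with several and 16004 with none. The brightest feature stood for a gene. A gene was tested when it exceeded the array median on at least 3 arrays. Group means over all 16 arrays were fitted with limma 3.58.1 in R 4.3.3, with Benjamini-Hochberg adjustment over all genes tested within each of 10 comparisons and a call at an adjusted p under 0.05. The fit was tested on simulated data.

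The text names all members, the 2 called genes of largest difference of each pathway list in a comparison described (or the 2 largest differences where none was called), Dlx5, and the 3 tested genes most correlated with each called member, without predicted genes, small RNAs and antigen receptor segments. Ccn2, Ankrd1, S1pr1, Dock2 and the Tnik, Rassf2 and Mob4 values beyond that rule were added after their values were seen. Members, lists and comparisons were chosen with earlier results of these data known. Promoter windows of GRCm38.p6 came from RefSeq. Alternatives were other normalizations, filters, feature summaries, variance models, weights, thresholds, the type of sample code as a term, each array left out, and, added after the data were seen, each founder line of the double transgenic tumors alone and founder line as a block.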

Additional observations from a re-analysis of the deposited data

Results flagged for a closer look

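Lats2 differed between founder lines 420 and 72, which both carry MyrAkt2. The log2 difference from WT in line 420 minus that in line 72 was -2.12 ± 0.30 (SE, limma adjusted p = 0.000445). Line 420 was below WT on all 3 arrays and line 72 above WT on all 3. Founder line was not the only difference, since Dlx5 read 9.87 to 10.69 in line 420 and 6.05 to 6.07 in line 72. In the group of 4 double transgenic tumors, no member had a value far enough from the others to pass Dixon's 95% critical value. The groups of 3 were not tested in that way.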

How the results depend on the processing

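Of 1877 log2 differences of a member recomputed under an alternative, 1796 kept their direction and their side of the threshold, 6 lost a call, 29 gained one and 46 changed sign without a call in either fit, while none of the called ones reversed. Of the 46, 39 were in differences of at most 0.13 in size. The other 7 were Yap1 without Lck-Dlx5 replicate 3 (against WT -0.27, against line 420 -0.35, and double transgenic against Lck-Dlx5 0.06) and values with 1 founder line of the double transgenic tumors alone. A shift to 1 median, trend and robust moderation and the mean of a gene's features changed no call. Yap1 was not tested with the mean of its features or with the filter at the 75th percentile, since it did not pass the filter there. The lost calls were those of Lats2, Stk4 and Mob1b named above. Of the members called against WT, 4 were called in Lck-Dlx5 lymphomas with array weights and 1 with a log2 difference of at least 1 or an adjusted p under 0.01 (main value 2), and 1 in line 72 with a log2 difference of at least 1 (main value 2). In line 420 the count was 2 with quantile normalization, only the arrays compared or code type as a term, 4 with array weights and 0 under either stricter threshold (main value 1). In double transgenic tumors it was 1 with array weights or code type and 2 with founder line 47 alone (main value 0). Between Lck-Dlx5 and line 72 it was 1 with only the arrays compared and under either stricter threshold (main value 2). Between line 420 and line 72 it was 2 with no filter or with code type (main value 1). Between double transgenic tumors and line 72 it was 2 with no filter or founder line 86 alone and 3 with array weights or code type (main value 1). With founder line 86 alone, 2 members were called against Lck-Dlx5 and 1 against line 420 (main value 0 each).

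Leaving out each array in turn, the counts ran from 1 to 2 in Lck-Dlx5 against WT, 2 to 2 in line 72 against WT, 0 to 2 in line 420 against WT, 0 to 1 in double transgenic against WT, 1 to 2 in Lck-Dlx5, line 420 and double transgenic tumors against line 72, and stayed at 0 in the other 3 comparisons. Shifting arrays to 1 median moved the share of all called genes that were higher by over 10 percentage points in 3 comparisons: in double transgenic tumors against WT it was 72.6% in place of 62.5%, against Lck-Dlx5 85.4% in place of 73.9%, and against line 420 85.7% in place of 69.6%. Without single arrays, all genes called ran from 34 (without line 420 replicate 3) to 154 in Lck-Dlx5 against line 420 (main value 107), from 14 (without double transgenic replicate 4) to 787 (without replicate 1) in double transgenic against Lck-Dlx5 (main value 241) and from 6 (without double transgenic replicate 4) to 665 (without replicate 2) in double transgenic against line 420 (main value 23). Against WT, leaving out WT replicate 2 gave 2372 in Lck-Dlx5 (main value 3828) and 1664 in double transgenic tumors (main value 3079). With line 72 as reference, counts dropped to 1660, 895 and 1471 at the lowest in Lck-Dlx5, line 420 and double transgenic tumors (main values 2548, 1445 and 2290).

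Replicate numbers of the groups were given in order and pair nothing, but Dlx5 founder lines 47 and 86 occur in both Lck-Dlx5 and double transgenic tumors. With founder line as replicate block, added after the data were seen, no call of a member changed between them, Lats2 differed by 0.24 (adjusted p = 0.626) and 373 of all genes were called, against 241 without the block. Over all alternatives this count ran from 0 to 1932. The precision of each difference is limited by groups of 3 or 4 arrays.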

Other observations

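The genes of the wider pathway that differed between the founder lines of the double transgenic tumors, fitted as separate groups, were Tnik (1.37 ± 0.23, SE, limma adjusted p = 0.00805), Rassf2 (1.22 ± 0.16, adjusted p = 0.0023), Ajuba (1.29 ± 0.20, adjusted p = 0.00589) and Nt5e (1.57 ± 0.41, adjusted p = 0.0497), each higher in founder line 86 than in founder line 47. These genes came from lists of 5, 4, 12 and 7 tested genes, and none was called in the lists of 9, 7, 11 and 11. Of all genes, 4.28% were called between these founder lines. The split was chosen after the values were seen, and sample code type and the labelled Akt2 line go with it. Ajuba, a LIM protein that binds Lats kinases, read 6.96 and 7.23 in the founder line 86 tumors, against 5.84 and 5.77 in the founder line 47 tumors. It stood at 6.4 or below on all other arrays. Ajuba passed the filter on dim features only with the founder line 86 tumors counted. Its founder line 47 values lay below the array medians, so its call is a description. Fibroblast and endothelium markers were 7.27 and 7.65 in the founder line 86 tumors, against 6.98 and 7.19 in the founder line 47 tumors. Of these markers, Col1a2 (1.63, limma adjusted p = 0.0229) and Pecam1 (1.06, adjusted p = 0.0182) were themselves called higher in founder line 86. The other markers were not called. Dcn (0.94), Col1a1 (0.54), Col3a1 (0.15) and Cdh5 (0.04) were higher in founder line 86, and Pdgfrb (-0.48), Kdr (-0.28) and Pdgfra (-0.26) were lower. Pecam1 averaged 10.33 in WT cells, its highest group mean. The part of these markers in the differences above was not tested.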
